A study of Drosophila melanogaster with 2 samples.

Results

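Aminoacyl-tRNA synthetase genes encode the enzymes that attach amino acids to their tRNAs. Their starts were examined in chromatin immunoprecipitation sequencing of Drosophila melanogaster embryos for Rfx, an RFX-family transcription factor known for its role in genes for cilia. Whole embryos aged 0 to 24 h carried an Rfx-eGFP fusion. The labels name an antibody to GFP in the description and Rfx in the antibody field. There was 1 group of 2 biological replicates of the same transgenic strain and no contrast of conditions. Whole embryos mix all cell types, so the cells behind a peak are not known. Members were the protein-coding genes of the Ensembl annotation whose symbol has an amino acid code directly before a final RS or RS-m. They numbered 35 of the 13968 protein-coding genes on the 7 chromosome arms, and comprised 20 cytosolic genes and 15 genes for mitochondrial enzymes, marked -m. The label was checked against the symbols only, since the files hold peaks and no expression values. Cytosolic here means only that the symbol lacks -m. GlnRS, GlyRS, HisRS, LysRS and ThrRS had no -m counterpart among the members, and where their products act was not checked.

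A synthetase recognises its amino acid, activates it with ATP and joins it to the matching tRNA, which the ribosome then reads. Animal cells translate in the cytosol and, with a separate set of tRNAs, inside mitochondria, and most amino acids have a separate nuclear gene for each compartment. Cytosolic synthetases are housekeeping enzymes, and several of them form a large complex held together by scaffold proteins. GluProRS is a single protein that charges tRNAs with glutamate and with proline, and phenylalanine needs both an alpha and a beta subunit in the cytosol.

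The deposited lists give peaks on the dm6 build, each with a summit and a signal, the enrichment value of the peak caller, whose scale is not stated and which was compared within a list only. On the arms, the main set of both replicates together held 9247 peaks. The replicates' own sets held 6290 and 6953, and a conservative set held 6978. Sequencing depth is unknown, since these lists give no read counts. A gene was counted as having a peak when a summit lay within 500 bp of any of its annotated transcription start sites (TSSs).

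Cytosolic synthetase genes carried an Rfx-eGFP peak at their starts in a larger share than protein-coding genes at large, and mitochondrial synthetase genes in a similar share. In the main set, 35.4% of all protein-coding genes had a TSS peak. Of the 35 synthetase genes, 23 had one, or 65.7% (95% Wilson interval over genes 49.2 to 79.2). The cytosolic genes had a peak at 17 of 20, or 85.0% (64.0 to 94.8), and the mitochondrial genes at 6 of 15, or 40.0% (19.8 to 64.3). The interval of the mitochondrial genes holds the share of all genes, and the interval of the cytosolic genes lies above it. These intervals cover counting error over genes only and are no test. The difference between the classes was 45.0 percentage points. It was not tested, since genes are not replicates and no condition was contrasted.

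Both replicates put the cytosolic genes above the mitochondrial genes. In replicate 1's own set, 13 of 20 cytosolic genes (65.0%) and 5 of 15 mitochondrial genes (33.3%) had a TSS peak, against 28.2% of all protein-coding genes. In replicate 2's own set the numbers were 14 of 20 (70.0%) and 3 of 15 (20.0%), against 29.6% of all genes. The mean over the replicates was 67.5% ± 3.54 (SD, n = 2) for cytosolic and 26.7% ± 9.43 (SD, n = 2) for mitochondrial genes, and the difference was 40.8 ± 13.0 percentage points (SD, n = 2). The lower cytosolic share, 65.0%, was above the higher mitochondrial share, 33.3%. A peak in each replicate's own set was found at 12 cytosolic genes (60.0%) and 3 mitochondrial genes (20.0%), against 23.2% of all genes. In the conservative set, where 29.9% of all genes had a TSS peak, the numbers were 14 of 20 (70.0%) and 4 of 15 (26.7%).

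**Figure D1:**
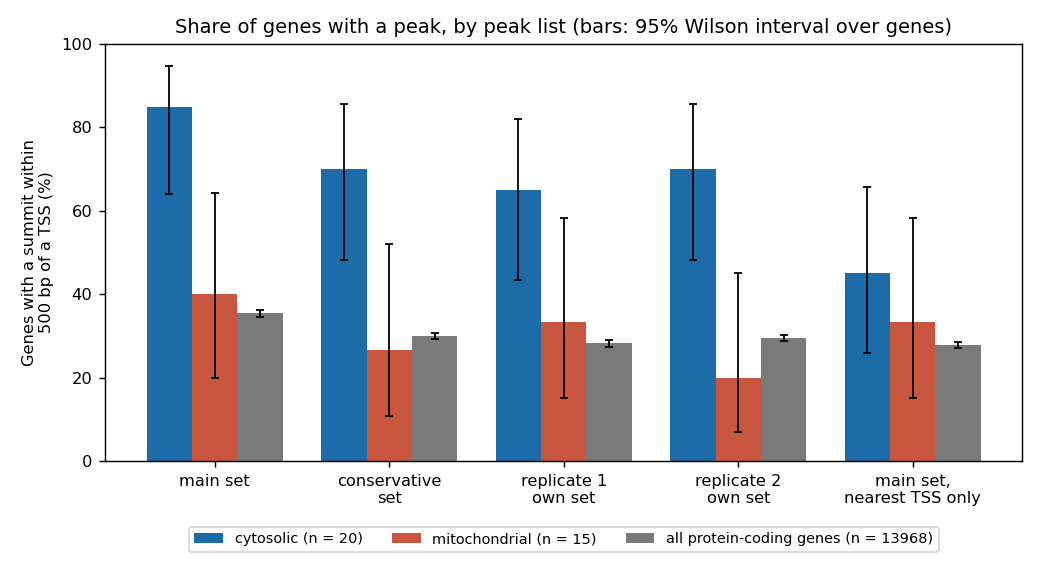
Percentage of genes with a summit within 500 bp of a TSS (y axis) in 4 peak lists and in the main set with each summit given to its nearest start only (x axis), for 20 cytosolic and 15 mitochondrial synthetase genes and all 13968 protein-coding genes; error bars are 95% Wilson intervals over genes. Cytosolic genes stand highest in each list, at 85.0% in the main set, and fall to 45.0% when a summit goes to its nearest start only.

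Much of the cytosolic count came from peaks shared with a neighbouring gene. Of the 17 cytosolic genes with a peak, 15 had the start of another protein-coding gene within 500 bp of the same summit, and for 8 of them that start was nearer to the summit than their own. Of the 6 mitochondrial genes with a peak, 4 had such a neighbour and for 1 the neighbour was nearer. The share of all genes with a peak that had such a neighbour was not counted. When each summit was given only to the protein-coding gene with the nearest TSS, 9 of 20 cytosolic genes (45.0%, Wilson interval 25.8 to 65.8) and 5 of 15 mitochondrial genes (33.3%, 15.2 to 58.3) kept a peak, against 27.8% of all genes. HisRS was among the 9 on a tie, since Bx starts at the same base. The intervals of both classes held the share of all genes in this setting. The difference between the classes was then 11.7 percentage points. Of the genes with a main-set peak, this setting kept 52.9% of the cytosolic and 83.3% of the mitochondrial genes, against 78.5% of all protein-coding genes. A summit near both starts cannot be given to either gene by these files.

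The strongest peak of the list lay at GluProRS (FBgn0005674), on 3R from 23958356 to 23958689. Its main-set signal was 874, rank 231 of 9247, and it stood at percentile 97.5 of the main-set signals in replicate 1 and at 96.3 in replicate 2. The summit lay at -141 bp from the GluProRS start (negative is upstream) and 119 bp from the start of AP-1sigma, which encodes a subunit of a clathrin adaptor and is read in the opposite direction. SerRS (FBgn0031497; 2L, 3037212 to 3037557), the serine enzyme, had a signal of 557 and percentiles of 95 and 88.6 in replicates 1 and 2. It was the only member with a summit downstream of its start, by 33 bp, in its 5′ UTR. IleRS (FBgn0027086; 3L, 22288398 to 22288623), the isoleucine enzyme, had 484 and percentiles of 92.5 and 90.3. All 3 genes thus ranked high in each replicate.

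ThrRS, beta-PheRS and ArgRS followed among the cytosolic genes. ThrRS (FBgn0027081; 2L, 12103366 to 12103563) had a signal of 344 and percentiles of 86.9 and 82.2, with its summit almost midway between its own start, at -235 bp, and that of Patsas, 231 bp away. beta-PheRS (FBgn0039175; 3R, 24252629 to 24252831), the subunit gene for phenylalanine, had 336 and percentiles of 84.4 and 85.7. Its peak had no other coding start within 500 bp, which held for only 1 other cytosolic gene with a peak, AlaRS. ArgRS (FBgn0027093; X, 15844240 to 15844408), the arginine enzyme, had 289 and percentiles of 85.5 and 71.6, a spread of 78.5 ± 9.84 (SD, n = 2).

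The other 11 cytosolic genes with a peak had signals from 281 at AsnRS down to 68.8 at LysRS. ValRS, MetRS and AspRS stood close together at 174, 172 and 169. TrpRS, GlnRS, alpha-PheRS and AlaRS had 132, 125, 112 and 103, and HisRS and GlyRS 99.1 and 80.9. The 2 phenylalanine subunit genes, whose products act together, thus had signals of 336 and 112. AspRS and GlyRS had no peak over the summit in the ranked list of replicate 1, and stood at percentiles 33.0 and 25.5 in replicate 2. LysRS, the weakest, stood at 20.6 and 6.74, and was found in neither replicate's own set. GlyRS too was in neither.

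The mitochondrial gene with the strongest peak was ArgRS-m (FBgn0037526; 3R, 7886847 to 7887022), with a signal of 303 and percentiles of 83.6 and 81.2 in replicates 1 and 2. LeuRS-m (FBgn0027085; 3L, 4825649 to 4825992) had 181 and percentiles of 64.3 and 64.5, so that the replicates gave the same place. PheRS-m (FBgn0275436; 2R, 13968017 to 13968360) had 109, with percentiles of 39.0 and 46.6. These 3 were the mitochondrial genes found in each replicate's own set.

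Of the other 3 mitochondrial peaks, those of AspRS-m and ProRS-m were far higher in replicate 1 than in replicate 2, and that of CysRS-m was low in both. AspRS-m (FBgn0051739; 2L, 16826877 to 16827220) had a main-set signal of 142, and stood at percentile 67.0 in replicate 1 and 20.9 in replicate 2. ProRS-m (FBgn0027082; 3L, 2651842 to 2652185) had 115, and stood at 67.8 in replicate 1 and 2.19 in replicate 2, the widest gap of the list. CysRS-m (FBgn0033900; 2R, 14161126 to 14161469) had 76.0 and stood at 6.80 and 27.5. AspRS-m and ProRS-m were in replicate 1's own set only, and CysRS-m was in neither.

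Among genes with a main-set peak, the median cytosolic peak was about as strong as that of all protein-coding genes. The median of the few mitochondrial peaks lay lower in the main set and in replicate 2, but not in replicate 1. The median peak stood at percentile 66.5 of the main-set signals for the 17 cytosolic genes and 52.8 for the 6 mitochondrial genes, against 66.2 over all 4949 protein-coding genes with a peak. By replicate 1 signals the medians were 66.9 for cytosolic and 65.6 for mitochondrial genes, against 66.1 for all genes. By replicate 2 signals they were 61.9 and 37.1, against 62.5. A peak above percentile 75 of the main-set signals was found at the starts of 7 of 20 cytosolic genes and 1 of 15 mitochondrial genes, ArgRS-m, against 13.7% of all protein-coding genes.

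The window of 201 bp around the summit, printed below on the strand of the synthetase gene and without annotated exons, shows the DNA under the strongest peaks. It is given for the 4 strongest peaks of each class and for TrpRS, the only member with a DREF site within 100 bp of its summit. SerRS is left out because its window is almost all annotated exon. Exons are cut, so that some matches in the full window are not shown. Capitals mark exact matches, on either strand, to the motifs described after them. The dm6 coordinates are chr3R:23958432-23958632 for GluProRS, chr3L:22288416-22288616 for IleRS, chr2L:12103416-12103616 for ThrRS and chr3R:9266905-9267018 for TrpRS. They are chr3R:7886819-7887019 for ArgRS-m, chr3L:4825721-4825852 for LeuRS-m, chr2L:16826965-16827077 for AspRS-m and chr3L:2651914-2652087 for ProRS-m. GluProRS, TrpRS and ProRS-m are on the minus strand and the others on the plus strand.
GluProRS: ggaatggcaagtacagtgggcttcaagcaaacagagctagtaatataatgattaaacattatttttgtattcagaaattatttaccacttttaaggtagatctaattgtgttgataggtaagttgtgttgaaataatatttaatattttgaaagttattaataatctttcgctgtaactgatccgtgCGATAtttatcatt
IleRS: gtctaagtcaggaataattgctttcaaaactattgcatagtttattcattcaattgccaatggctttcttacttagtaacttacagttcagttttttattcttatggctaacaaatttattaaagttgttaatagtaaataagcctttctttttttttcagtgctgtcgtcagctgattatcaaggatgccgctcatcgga
ThrRS: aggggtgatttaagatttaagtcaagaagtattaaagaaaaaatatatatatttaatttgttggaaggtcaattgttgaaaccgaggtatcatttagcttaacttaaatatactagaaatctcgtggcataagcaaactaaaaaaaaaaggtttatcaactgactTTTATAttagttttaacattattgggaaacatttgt
TrpRS: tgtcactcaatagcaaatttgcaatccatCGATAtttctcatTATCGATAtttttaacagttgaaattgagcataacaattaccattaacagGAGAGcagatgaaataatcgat
ArgRS-m: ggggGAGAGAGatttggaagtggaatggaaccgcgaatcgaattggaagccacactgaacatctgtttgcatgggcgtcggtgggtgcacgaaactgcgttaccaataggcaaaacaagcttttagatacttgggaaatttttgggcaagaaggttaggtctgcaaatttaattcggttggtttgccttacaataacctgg
LeuRS-m: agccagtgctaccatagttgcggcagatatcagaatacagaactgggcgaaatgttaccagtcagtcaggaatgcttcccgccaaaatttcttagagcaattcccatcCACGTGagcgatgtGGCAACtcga
AspRS-m: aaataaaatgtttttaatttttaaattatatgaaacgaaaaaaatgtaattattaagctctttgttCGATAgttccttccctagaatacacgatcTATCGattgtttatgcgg
ProRS-m: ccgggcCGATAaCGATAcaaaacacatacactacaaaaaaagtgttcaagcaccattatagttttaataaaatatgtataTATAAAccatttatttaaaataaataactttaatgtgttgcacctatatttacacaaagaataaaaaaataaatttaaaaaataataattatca

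In these stretches the capitals are a BEAF-32 site in GluProRS, a TATA site in ThrRS and 2 overlapping GAGA sites in ArgRS-m, and IleRS holds no match. LeuRS-m holds an E-box followed by a single X-box arm. AspRS-m holds 2 BEAF-32 sites, and ProRS-m holds 2 next to each other and a TATA site. TrpRS holds a DREF site, 3 BEAF-32 sites, of which 2 lie within the DREF palindrome, and a GAGA site.

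No synthetase peak had a strict X-box, the palindromic site of RFX factors, within 100 bp of its summit. It was found at 0 of the 23 summits, against 0.834% of the 4435 main-set summits within 500 bp of a coding start. For 0 found, the limit here and below is 3 counts and not a Wilson interval, which allows a share of up to 13.0%. The strict X-box was also found in 0 of the 35 synthetase promoters (up to 8.57%), against 0.888% of all promoters. Promoters were taken from 250 bp before to 50 bp after the gene start. A single arm of the X-box, GGCAAC, was found at 4 summits, or 17.4%, against 15.6%. These were beta-PheRS, GlyRS, LeuRS-m and CysRS-m. Within 50 bp of the summit the arm was found at 3 of 23 (13.0%, against 8.93%), and within 150 bp at 8 of 23 (34.8%, against 20.6%). In the promoters it was found at 11 of 35 (31.4%, against 17.9%). Its share was thus near the background within 100 bp and above it in the others, on few members.

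Core promoter and insulator sites were found at the synthetase summits at shares both above and below those of other promoter-proximal summits, all on few members. TATAAA was found at 10 of 23 (43.5%, against 27.8%), and Motif 1, GGTCACAC, a core element of housekeeping promoters, at 5 of 23 (21.7%, against 6.22%). The 5 were ValRS, GlnRS, beta-PheRS, AspRS-m and ProRS-m, and the ValRS match lay outside the ValRS promoter. In the promoters, Motif 1 was found at 5 of 35 (14.3%, against 7.7% of all promoters). The DREF site, TATCGATA, was found at 1 of 23 (4.35%, against 9.61%), TrpRS. Within 150 bp of the summit it was found at 6 of 23 (26.1%, against 11.3%), so that its place relative to the background turns with the window. The BEAF-32 site, CGATA, which the DREF site contains, was at 11 of 23 (47.8%, against 42.7%). It too turned with the window, with 6 of 23 (26.1%, against 28.5%) within 50 bp and 16 of 23 (69.6%, against 51.6%) within 150 bp. GAGAG was at 4 of 23 (17.4%, against 24.7%). The E-box CACGTG was at 2 of 23 (8.70%, against 2.75%), GlnRS and LeuRS-m. The amino acid response element TTGCATCA, a site of the stress factor ATF4 known to act at synthetase genes in mammals, was at 0 of 23, which allows a share of up to 13.0%, and at 0.293% of the promoter-proximal summits. Within 150 bp it was at 1 of 23 (4.35%, against 0.609%). Within 50 bp the TATA site, Motif 1 and GAGAG were at 5, 2 and 1 of 23 (21.7%, 8.70% and 4.35%, against 14.3%, 3.47% and 11.7%), on the same side of the background as within 100 bp. Within 150 bp they were at 10, 5 and 5 of 23 (43.5%, 21.7% and 21.7%, against 38.5%, 8.41% and 35.6%). The TATA share was thus nearer to the background in the widest window. The background counts include the members, the shares were not tested, and a match is no evidence of a bound factor.

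Synthetase summits lay upstream of the gene start almost throughout. Of the 23, 22 lay upstream of the nearest start of the synthetase gene (95.7%), against 83.6% of all genes with a peak. The median position was -87 bp, against -85 bp for all genes. Each synthetase gene had a single summit in the window, whereas 15.4% of all genes with a peak had several. The AspRS summit lay in an intron, upstream of an internal start. The summit farthest from its gene but still counted was that of ValRS, at -455 bp, followed by GlyRS at -269 bp. The nearest summit outside the limit lay 1976 bp from the start of SerRS-m, so that no member sat close to the limit on the outside.

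**Figure D2:**
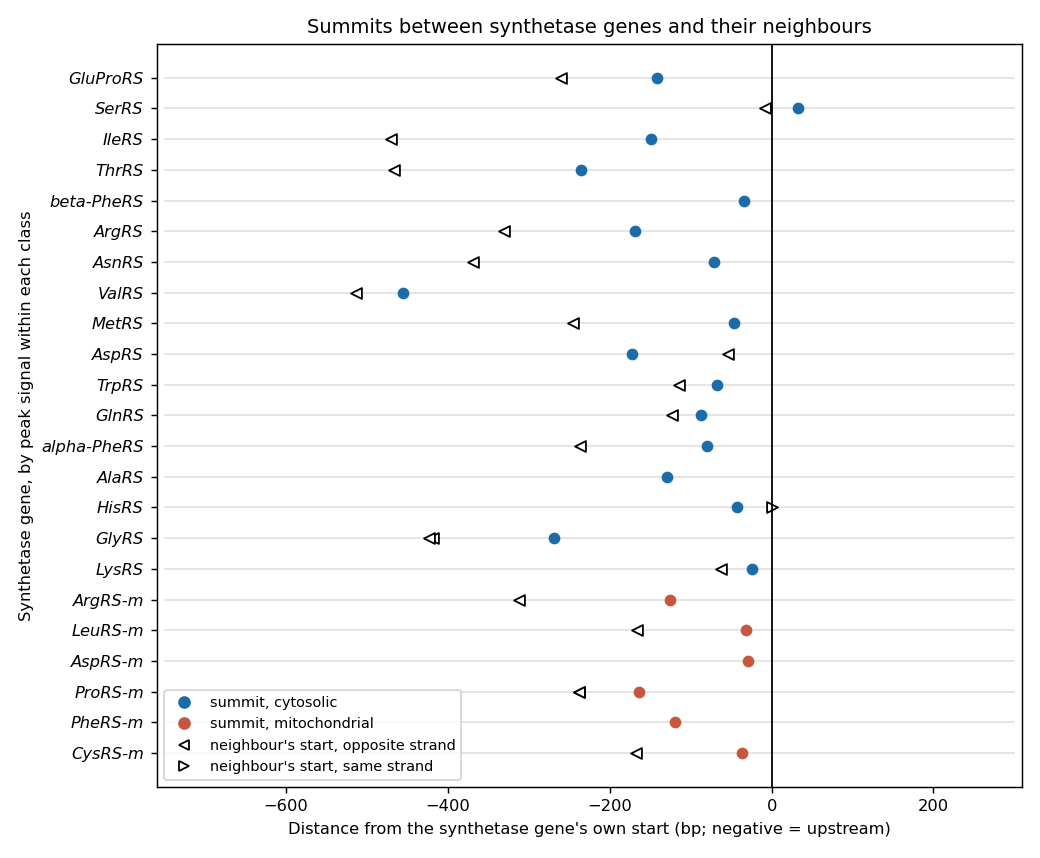
Position of the main-set summit (filled circles) relative to the start of each of the 23 synthetase genes with a peak (x axis, bp, negative upstream), with the starts of other protein-coding genes within 500 bp of the summit as open triangles that show the strand. Genes are ordered by signal within each class (y axis). All summits but that of SerRS lie upstream, and 19 of the 23 have a neighbouring start within reach, a count not made over all genes.

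Divergent promoters were frequent among the synthetase genes. A gene was called divergent when another protein-coding gene started on the opposite strand within 500 bp of one of its starts. This held for 15 of 20 cytosolic genes (75%) and 7 of 15 mitochondrial genes (46.7%), against 27.8% of all protein-coding genes. Over all genes, 61.3% of divergent genes and 25.5% of the others had a main-set TSS peak. Cytosolic genes had a peak at 13 of 15 divergent members (86.7%) and 4 of 5 others (80.0%), the last being ValRS, beta-PheRS, AlaRS and HisRS. Mitochondrial genes had one at 4 of 7 divergent members (57.1%) and 2 of 8 others (25.0%). The mitochondrial shares thus lay near the background of each kind, and the cytosolic shares above it. The cytosolic share without a divergent start rests on few genes. Of its 4 genes with a peak, HisRS shares its start with Bx. ValRS has the opposite start of Kdm4B at -513 bp, just outside the limit. With a limit of 1000 bp, 2 of 3 cytosolic genes without a divergent start had a peak (66.7%, against 23.0% of all such genes). The part of promoter arrangement in the difference between the classes was not tested.

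**Figure D3:**
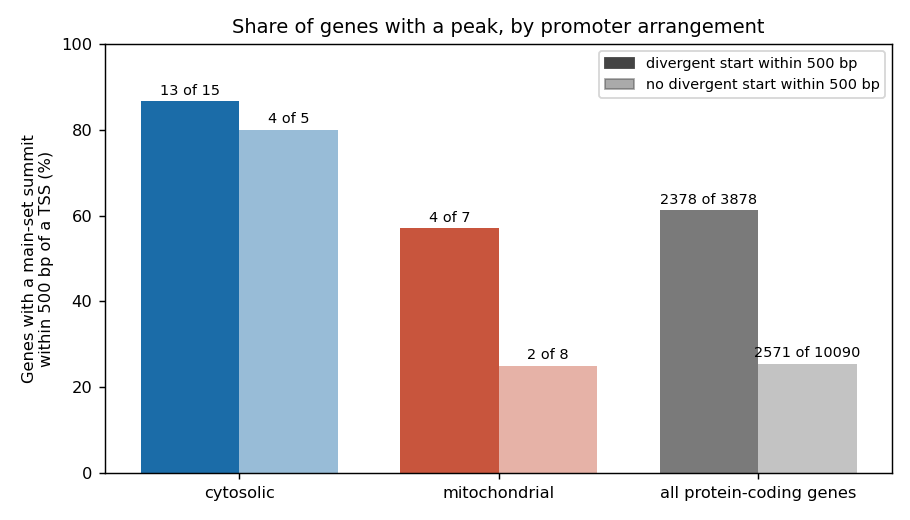
Percentage of genes with a main-set summit within 500 bp of a TSS (y axis), for genes with (dark bars) and without (pale bars) a divergent coding start within 500 bp, in each class of synthetase gene and in all protein-coding genes (x axis); counts stand above the bars. Cytosolic genes stand at 86.7% and 80.0%, and mitochondrial genes at 57.1% and 25.0%, beside 61.3% and 25.5% of all genes.

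The neighbours that shared a summit with a synthetase gene had varied roles. GlnRS shared its summit with RIOK2, a kinase of ribosome maturation, whose start was 36 bp from it, and TrpRS with the membrane trafficking gene Vps16A at 47 bp. ValRS shared its summit with the histone demethylase gene Kdm4B, whose start was 58 bp away. GlyRS shared its summit with the centrosome gene Plp and with sstn, at 149 and 154 bp. LeuRS-m was paired with Dhc64C, the heavy chain of cytoplasmic dynein, and CysRS-m with O-fut1, a fucosyltransferase of the Notch pathway. A start of Bx, a LIM-only gene, is annotated at the same base and on the same strand as that of HisRS, so their summit distances are both 43 bp.

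All 12 members without a main-set peak appeared in the ranked list of replicate 2, which runs far below the IDR threshold and in which 73.0% of all protein-coding genes had a TSS summit. In the ranked list of replicate 1 (65.3% of all genes) 6 of the 12 did, namely LeuRS, TyrRS, TrpRS-m, ValRS-m, TyrRS-m and AsnRS-m. The combined ranked list (75.3% of all genes) held 10 of the 12. CysRS came nearest to the main set. Its combined ranked peak, at -18 bp from the start, had a signal of 76.8 and an IDR score of 820, just under the lowest main-set score of 830. It had no counterpart in replicate 1 and a signal of 41.4 in replicate 2. TyrRS had a similar combined signal, 72.4, but a score of only 249, with signals of 40.4 and 32.0 in the replicates' ranked lists. LeuRS, the third cytosolic gene without a peak, had a combined signal of 32.6.

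The 9 mitochondrial genes without a main-set peak all lay below CysRS and TyrRS in the combined ranked list, and 4 of them lay above LeuRS. TrpRS-m had 48.3 and AsnRS-m 41.6, and TyrRS-m, AlaRS-m, SerRS-m, ValRS-m and GluRS-m had 33.4, 33.2, 29.1, 26.5 and 15.9. IleRS-m and MetRS-m had no summit within 500 bp of a start in that list, and signals of 25.2 and 9.19 in replicate 2.

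A ranking that needs no threshold gave the same order of the classes. All protein-coding genes were ranked by the strongest ranked-list signal at a TSS, with genes without one placed last. A summit shared with a neighbouring gene counted for both genes, and no ranking by nearest starts only was made. The ranking therefore keeps the summits that lie nearer to a neighbour's start. In the main set the difference between the classes was 45.0 percentage points with these counted and 11.7 at nearest starts only. In the combined list the median cytosolic gene stood at percentile 79.6 and the median mitochondrial gene at 50.4. In replicate 1 these were 74.4 and 52.7, and in replicate 2 they were 78.8 and 50.4. Cytosolic genes lay above percentile 50 for 16 of 20 members in replicate 1 and 19 of 20 in replicate 2, and mitochondrial genes for 8 and 9 of 15. The classes overlapped, since LeuRS stood at percentiles 44.6 and 43.8 in replicates 1 and 2, and ArgRS-m at 91.0 and 90.0. In replicate 1, AspRS, CysRS and GlyRS had no ranked peak and stood lower still, at 17.4.

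**Figure D4:**
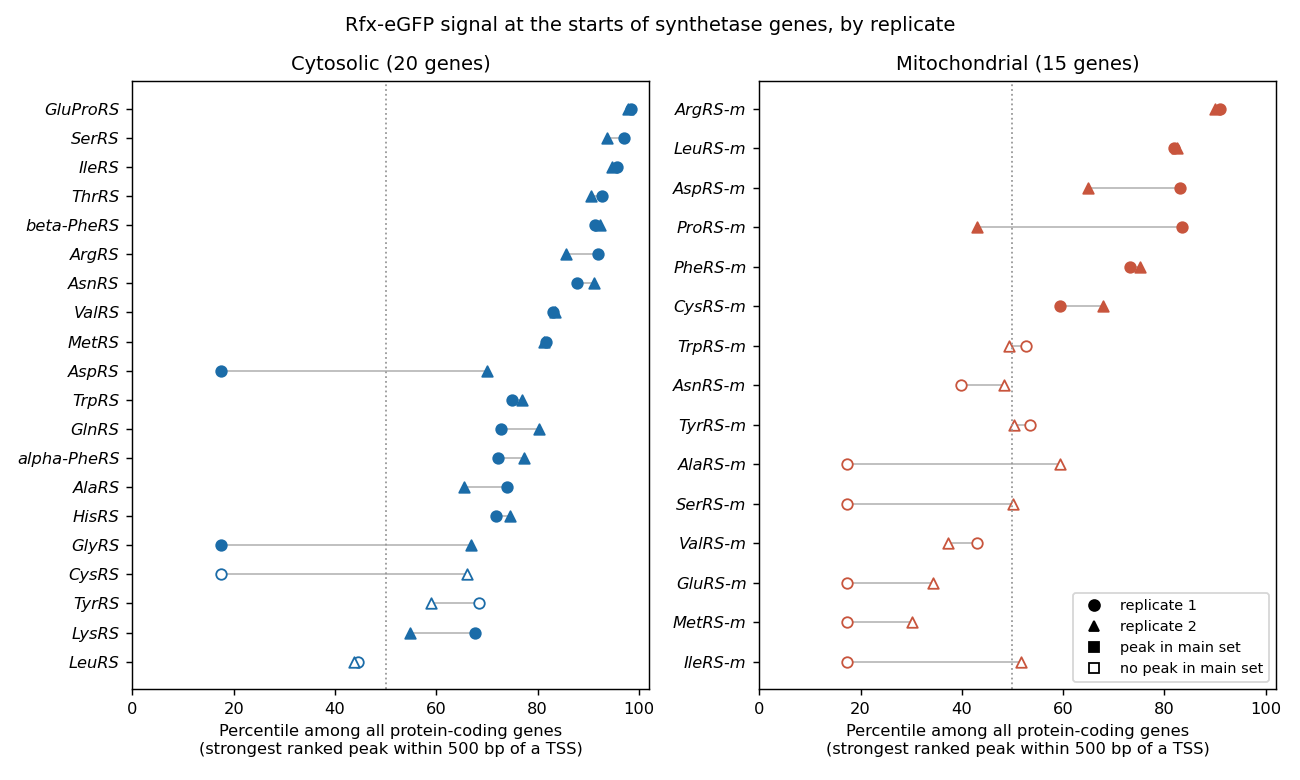
Percentile of each synthetase gene among all protein-coding genes by its strongest ranked peak within 500 bp of a TSS (x axis), in replicate 1 (circles) and replicate 2 (triangles), for 20 cytosolic and 15 mitochondrial genes (y axis); filled symbols mark a main-set peak. Genes with no ranked peak share percentile 17.4 in replicate 1. Most cytosolic genes lie to the right of the dotted line at percentile 50, and the mitochondrial genes spread on both sides of it.

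Genes for the same amino acid could be set side by side for 15 amino acids, with GluProRS standing for glutamate and for proline and beta-PheRS, the stronger subunit, for phenylalanine. In the combined ranked list the cytosolic gene had the higher signal for 13 of 15. Summits nearer to a neighbour's start, such as that of GluProRS, counted here too. In the main set, 4 amino acids had a peak at both kinds of gene, 8 at the cytosolic gene only, 2 at the mitochondrial gene only and 1 at neither. Leucine went the other way, with 32.6 at LeuRS and 181 at LeuRS-m, and did so in each replicate's ranked list. The arginine pair was close, with 289 at ArgRS and 303 at ArgRS-m, and its order turned between replicates (204 and 189 in replicate 1, 89.9 and 119 in replicate 2). In each replicate's ranked list the cytosolic gene was higher for 12 of 15. The choice of beta-PheRS favours the cytosolic side. With alpha-PheRS in its place the phenylalanine pair was almost level in the combined list, at 112 against 109 for PheRS-m. It then turned in replicate 1, at 51.2 against 55.4, and stood at 62.1 against 57.4 in replicate 2. The order of the aspartate pair turned in replicate 1, where AspRS had no peak, and that of the cysteine pair in both replicates.

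Genes that work with the synthetases had peaks at 9 of 16 matched members, against 35.4% of all protein-coding genes. GatA and GatC, subunits of the amidotransferase that completes glutamine tRNA in mitochondria, had main-set signals of 877 and 182, and GatB had no peak. Of the scaffold proteins of the cytosolic complex, AIMP1 had 167, and AIMP2 and AIMP3 had none. The elongation factor gene eEF1alpha1, whose product carries charged tRNA to the ribosome, had 575. Of the mitochondrial elongation factor genes, mEFTs had 124 and mEFG1 76.0, and mEFTu1 had none. Among tRNA maturation genes, CG2100 had 241, rswl 132 and mldr 72.6, and scu had none. Slimp, which encodes a relative of mitochondrial SerRS, and Dtd, which encodes a deacylase that removes D-amino acids from tRNA, had none. The peak of mldr was in neither replicate's own set, that of rswl in replicate 1's only and that of mEFG1 in replicate 2's only. Whether the summits of these genes lay nearer to a neighbour's start was not examined.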

How the data were processed

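The authors' peak lists are on dm6 and carry an irreproducible discovery rate (IDR), which is low for peaks that rank alike in the compared sets, per the file descriptions. Fragments were 200 to 800 bp, per the labels. Which aligner and caller were used is not given in the sources used here, and the control named in the labels was not analysed. The deposited signal is the caller's enrichment, on an unstated scale. The score deposited with each peak codes the IDR, up to 1000, and its lowest main-set value, 830, is an IDR of 0.01. The 24 columns on compared inputs in 3 ranked lists were not used.

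Summits were matched in Python 3.11.15 (numpy 2.4.6, pandas 2.3.3, scipy 1.17.1, matplotlib 3.10.9) to the starts of Ensembl release 115 (BDGP 6.54) transcripts, on the 7 arms, and the matching was tested on simulated data. A gene with several summits took the strongest. Replicate percentiles rank the strongest ranked-list signal over each main-set summit. Sequence came from the RefSeq genome of the same build. The 9 motifs were matched exactly on both strands. Members, lists, motifs, the rule for named genes (the 6 strongest per class, and each member without a peak) and 8 alternatives were chosen with earlier results of these data known. JhI-1 matched no symbol and was left out. No p value was computed.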

Additional observations from a re-analysis of the deposited data

How the results depend on the processing

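The files give no depth, so a missing peak is not an absent one. No paired analysis was possible because the study has 1 group. The number of synthetase genes with a TSS peak, 23 in the main set, was 17 to 18 in the replicates' own sets, 15 among peaks above the median signal and 14 with each summit at its nearest start only. That last setting left 9 cytosolic genes. Cytosolic genes numbered 13 to 14 in the replicates' own sets and mitochondrial genes 3 to 5, with 3 among peaks above the median signal. The difference between the classes kept its direction in all 8 settings, from 11.7 percentage points at nearest starts to 31.7 to 50 in the replicates' own sets. The median percentile of cytosolic peaks was 59.7 to 69.0 in the replicates' own sets. That of mitochondrial peaks was 54.0 to 55.2 there and 58.0 at nearest starts. Among peaks above the median signal it was 37.4, but these were ranked among the stronger peaks only. On the main-set scale the 3 mitochondrial peaks left there, ArgRS-m, LeuRS-m and AspRS-m, stood at 84.1, 68.7 and 58.0, so 37.4 is no fall in strength. A peak was found under all settings at 5 cytosolic genes, AsnRS, IleRS, MetRS, SerRS and beta-PheRS, and 2 mitochondrial genes, ArgRS-m and LeuRS-m. Apart from that change of scale, the cause of the changes between settings was not tested.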
